A study of Mus musculus with 15 samples.

Results

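The genes examined encode 8 parts of the SUMO conjugation machinery in the gastrocnemius of aged female mice. They are Sumo2, Sumo3, Sae1, Uba2, Pias1, Pias2, Pias3 and Senp6, and each symbol matched 1 Ensembl gene. The list was set by role and by no threshold on values, but with earlier results of these data known. All 8 are among the 55450 genes counted and among the 16920 genes that passed the filter on low counts and were tested. No difference in any of them passed the test in any of the 5 comparisons between groups, and for Sumo3, Pias1 and Senp6 the difference after running in Low mice was less than 0.5 times as large without Low Control mouse D9.

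SUMO proteins are small relatives of ubiquitin that are attached to lysines of other proteins, often nuclear ones, and alter their interactions, activity and location. Conjugation runs through an activating enzyme (E1) formed by the Sae1 and Uba2 proteins, a conjugating step, and ligases (E3) such as the PIAS proteins that help pass SUMO to particular targets. Proteases of the SENP family remove it again, and Senp6 prefers chains built of Sumo2 and Sumo3, the 2 near-identical forms that build up on proteins under cell stress. The modification is reversible and takes place on existing proteins, so transcript levels of the machinery are a measure of supply and not of how much SUMO is conjugated.

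All 15 mice were female, of strain C57BL/6JN and past 17 months of age, and each gave 1 library. A mouse was placed in a Low group if it showed no more than 1 positive frailty marker and in a High group from 2 markers on, judged against the cohort's own distribution. Low Control (n = 4, called robust control in the labels) and High Control (n = 3, frail control) were sedentary. Low Run (n = 4, robust 24h) and High Run (n = 4, frail 24h) had run 2 bouts on a treadmill with a 22 degree decline at 13 m/min, and the muscle was taken 24 h after the last one. No allele, transgene or drug is named for any group, and a portion of 1 powdered gastrocnemius per mouse was used. In whole muscle, fewer cells of a type and less RNA per cell cannot be told apart.

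Sumo2 and Sumo3 are shown because the similarity of their sequences, and of pseudogenes to them, bears on what the counts hold. Both coding sequences are from GENCODE M21 (GRCm38), written 5′ to 3′. Of Sumo3 the first 288 bases are printed, of which 285 align to bases of Sumo2. Capitals mark the 52 aligned bases that differ from Sumo2 and, near the end, 3 bases that have no counterpart in it. The last 45 bases of Sumo3, not printed, lie past the end of Sumo2.
Sumo2: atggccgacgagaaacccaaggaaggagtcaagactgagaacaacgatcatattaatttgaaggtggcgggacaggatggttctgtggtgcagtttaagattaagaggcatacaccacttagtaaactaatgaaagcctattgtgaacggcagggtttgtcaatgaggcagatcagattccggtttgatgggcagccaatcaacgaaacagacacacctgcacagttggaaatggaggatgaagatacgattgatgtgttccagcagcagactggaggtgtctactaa
Sumo3: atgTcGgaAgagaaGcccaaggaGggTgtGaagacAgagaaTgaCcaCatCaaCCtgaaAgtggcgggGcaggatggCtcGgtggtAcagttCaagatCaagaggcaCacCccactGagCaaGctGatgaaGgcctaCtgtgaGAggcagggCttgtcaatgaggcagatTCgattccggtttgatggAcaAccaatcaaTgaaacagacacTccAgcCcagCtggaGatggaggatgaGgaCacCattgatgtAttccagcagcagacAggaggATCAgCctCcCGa

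The aligned bases of Sumo2 (chr11:115523102-115536276, minus strand, coding sequence of 288 bases) and Sumo3 (chr10:77606097-77618331, plus strand, 333 bases) were 81.8% identical, and their longest shared run was 17 bases. No stretch of 75 bases was therefore common to these 2 coding sequences. The other members lie at chr7:16320234-16387806 (Sae1, minus strand), chr7:34140688-34169599 (Uba2, minus), chr9:62878368-62987924 (Pias1, minus), chr18:77065208-77153800 (Pias2, plus), chr3:96696384-96706070 (Pias3, plus) and chr9:80066903-80144953 (Senp6, plus), and all are protein-coding genes whose counts were taken over their exons, UTRs included.

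The closest copy of Sumo2 in the annotation is not Sumo3 but Gm10241, a processed pseudogene at chr16:20176727-20177012 (minus strand). All 286 bases of its annotated transcript are identical to the first 286 bases of the Sumo2 coding sequence printed above. Of the 977 windows of 75 bases in the Sumo2 transcript with that coding sequence, 228 (23.3%) also occur exactly in transcripts of 11 other genes, 9 of them pseudogenes, and 212 of the windows occur in Gm10241. Only uniquely aligned read pairs were counted, so how many pairs from Sumo2 were counted under Gm10241 or left out cannot be read from the counts. Gm10241 received 1556 counts over the 15 mice and Sumo2 602, and in single mice Gm10241 held between 67.2% and 80.7% of the sum of the pair. The other shared copies of Sumo2 received between 1 and 23 counts each. Among the remaining members no 75-base window was shared for Sae1, Uba2 or the PIAS genes and 3 windows for Senp6, while the 272 shared windows of Sumo3 (10.6%) all fell in Gm49325, a gene that overlaps it on the same strand and received 10 counts in all.

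**Figure D1:**
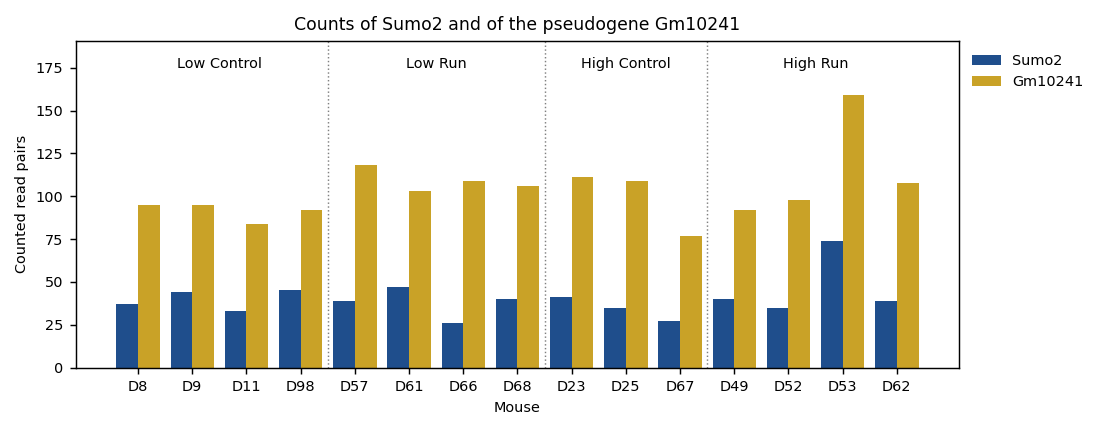
Read pairs counted in each mouse (y axis) for Sumo2 (blue) and for the pseudogene Gm10241 (yellow), with mice on the x axis by group. Gm10241 received more counts than Sumo2 in each of the 15 mice, and mouse D53 had the most of both, 74 and 159.

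Total counts per mouse ranged from 19395125 to 30699216. Sumo2 had 26 to 74 counts per mouse, so its sampling error is far larger than that of the other members, each of which had at least 165. A pair of libraries stood apart from the rest: the first principal component of all 55450 genes counted (26.0% of the variance) held D9 of Low Control at -76.0, D62 of High Run at -49.3 and the other mice between -14.4 and 19.7. The fits were therefore also run without both. The muscle markers of the list (Acta1, Ckm, Myh1, Myh2, Myh4 and Myh7) summed to between 81770 and 141932 counts per 1000000 (CPM) per library. The summed erythroid markers (Hba-a1, Hbb-bs and Alas2) ran from 460 to 2207 CPM in Low Control, 226 to 753 in Low Run, 289 to 459 in High Control and 355 to 3502 in High Run. The leukocyte markers Cd3e and Ptprc summed to 3.27 to 7.21, 5.60 to 25.2, 3.15 to 5.05 and 3.41 to 10.1 CPM in the same order of groups, and the 4 macrophage markers to 34.4 to 62.7, 48.9 to 73.0, 28.4 to 44.7 and 38.7 to 87.5 CPM. The adipocyte markers (Adipoq, Plin1 and Lep) summed to 42.05 to 58.6, 28.1 to 40.0, 32.4 to 88.7 and 19.2 to 47.2 CPM. Over all libraries the endothelial markers summed to 158 to 243, the fibroblast markers to 532 to 1159.9, the neutrophil markers to 1.30 to 318 and the satellite cell markers to 2.73 to 5.19 CPM. None of these markers passed an FDR of 0.1. At an unadjusted p under 0.05, all 3 erythroid markers were higher in High Run than in High Control and Low Run, and lower in High Control than in Low Control. The difference between the running responses of High and Low mice was above 0 for all 3. Both leukocyte markers were higher after running in Low mice, and Lep was lower there (log2 fold change -1.65, SE 0.49, FDR 0.36). In High mice 1 leukocyte marker was higher after running, and 1 was lower in High Run than in Low Run. Of the 4 macrophage markers, 1 was higher after running in Low mice and 2 in High mice. Of the 6 muscle markers, 1 was lower after running in Low mice and 1 in High mice, and Myh4 was lower without overlap in both. Of all genes, 13.4% met that p after running in Low mice and 5.18% in High mice. The share was 7.93% for the interaction, 5.86% between the control groups and 2.51% between the run groups. Lower without overlap after running were 3.84% of all genes in Low mice and 3.91% in High mice. The part of these other cell types in the values of the SUMO genes was not tested.

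Levels were compared between genes as CPM per kilobase of exon. Sumo3 had the highest level, 12.5 ± 4.80 (SD over the 15 mice), followed by Sae1 with 12.1 ± 1.64, Pias2 with 10.9 ± 2.32 and Uba2 with 10.7 ± 1.15. Each pair among these 4 differed by less than the sum of their SDs. Senp6 followed at 7.57 ± 1.49, Pias1 at 4.18 ± 0.534 and Pias3 at 2.54 ± 0.290, each apart from its neighbours by more than the sum of their SDs. By pairs counted under its own name, Sumo2 was lowest with 0.913 ± 0.200 CPM per kilobase, and Gm10241, over its 286 bases, had 14.4. Any pairs from Sumo2 that were counted under Gm10241 or left out are missing from this level. Its rank is therefore one of counts, and the rank of its transcript cannot be read from it. Counted pairs per kilobase were 13.9 times as high for Sumo3 as for Sumo2 (mean of 15 mice, range 8.69 to 27.0), a ratio with the same limit. The subunits of the E1, which act as a pair, had a Uba2 to Sae1 ratio per kilobase of 0.905 on average (range 0.617 to 1.37), highest in D9 (1.37) and D62 (1.31).

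In the comparisons, each group mean was fitted in edgeR to all 15 mice and p-values were adjusted over the 16920 genes. No member passed an FDR of 0.1 in any comparison, and neither did any other gene (0% of genes tested). DESeq2's Wald test gave 10 genes for Low Run against Low Control and 15 for High Run against High Control, none of them a member. At an unadjusted p under 0.05, 0 of 8 members were found in each comparison, against 13.4% of all tested genes for Low Run against Low Control, 5.18% for High Run against High Control, 7.93% for the Frailty × Run interaction, 5.86% for High Control against Low Control and 2.51% for High Run against Low Run. After running, 2 members were higher and 6 lower in Low mice (median log2 fold change of the 8 members -0.11, of all genes 0.02), and 5 were higher and 3 lower in High mice (0.07, all genes 0.05). The interaction, the difference of these 2 responses, was above 0 for 7 of 8 members (median 0.20, all genes 0.03). Control mice of the High group were lower than those of the Low group for 7 of 8 members (median -0.19, all genes -0.02), and the run groups differed least (median 0.06, all genes 0.01). These directions share groups and are not independent of each other. With D9 and D62 left out, again no member reached an unadjusted p under 0.05 in any comparison. The interaction was then above 0 for 3 of 8 members (median -0.03, all genes 0.0005), and High Control was lower than Low Control for 4 of 8 (median -0.02, all genes -0.01). After running, the counts were again 2 higher and 6 lower in Low mice (median -0.02) and 5 higher and 3 lower in High mice (0.05).

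**Figure D2:**
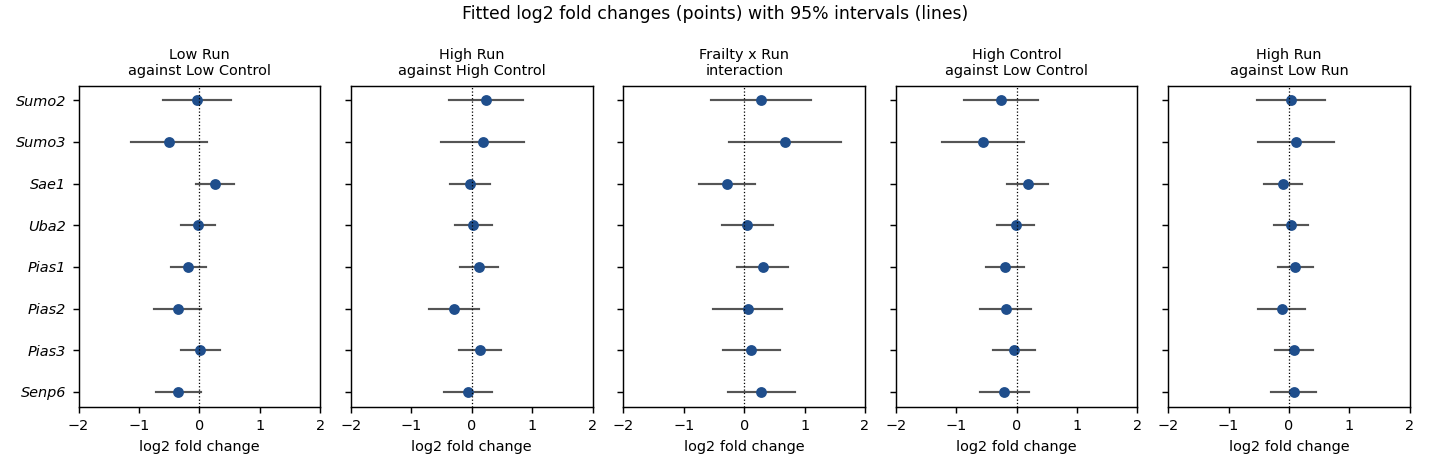
Fitted log2 fold change (x axis, point) with its 95% interval (line) for the 8 SUMO genes in the 5 comparisons. All 40 intervals include 0, and those of Sumo2 and Sumo3 are the widest.

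Values by mouse are given in CPM in a fixed order, D8, D9, D11 and D98 for Low Control, D57, D61, D66 and D68 for Low Run, D23, D25 and D67 for High Control, and D49, D52, D53 and D62 for High Run. Sumo3 had 53.9, 102, 40.7 and 32.1 CPM in Low Control and 46.9, 33.6, 32.4 and 49.8 in Low Run. It had 48.5, 33.0 and 36.3 CPM in High Control and 35.5, 37.4, 49.2 and 53.8 in High Run. Mouse D9 stood far above the rest, while the other mice lay between 32.1 and 53.9 CPM and all 4 groups overlapped. The log2 fold change of Sumo3 was -0.50 (SE 0.30, 95% interval -1.13 to 0.13, FDR 0.43) in Low mice and 0.18 (SE 0.32, FDR 0.98) in High mice. Its interaction, 0.68 (SE 0.44, 95% interval -0.25 to 1.61, FDR 0.62), was the largest among the members. Without D9 and D62 the 3 values for Sumo3 were -0.06, 0.05 and 0.11. Low Control mouse D98 bore on them in the other direction: without it the Low log2 fold change of Sumo3 was -0.70 (FDR 0.25) and the interaction 0.88 (FDR 0.43).

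Sumo2 had 1.61, 1.80, 1.46 and 1.75 CPM in Low Control, 1.66, 1.69, 1.11 and 1.99 in Low Run, 1.59, 1.30 and 1.30 in High Control and 1.66, 1.22, 2.45 and 1.21 in High Run. Groups overlapped throughout, and D53 alone lay above 2 CPM. The log2 fold change of Sumo2 was -0.04 (SE 0.27, FDR 0.96) in Low mice and 0.24 (SE 0.29, FDR 0.96) in High mice, with an interaction of 0.28 (SE 0.39, 95% interval -0.55 to 1.11, FDR 0.81). Gm10241 gave 0.28 (SE 0.18, FDR 0.46) in Low mice and -0.01 (SE 0.19, FDR 0.999) in High mice. When the counts of Sumo2 and Gm10241 were summed, the log2 fold change in Low mice was 0.19 and the interaction -0.13, so the direction of both depends on whether the pseudogene is added.

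Sae1, the E1 subunit that takes part in activating SUMO with ATP, was the member with groups that did not overlap. Low Control mice had 29.5, 21.4, 31.0 and 31.6 CPM and Low Run mice 35.7, 33.7, 32.7 and 33.5 CPM. High Control mice had 32.8, 31.8 and 32.3 CPM and High Run mice 33.1, 27.8, 39.4 and 25.4 CPM. Every Low Run mouse and every High Control mouse was above every Low Control mouse, D9 being the lowest of all 15 and D98, with 31.6 CPM, lying just below the lowest High Control mouse, with 31.8. The same held for 3.08% of all tested genes in the first comparison and for 5.2% in the second. The log2 fold change of Sae1 was 0.26 (SE 0.15, 95% interval -0.05 to 0.57, FDR 0.42) in Low mice, 0.14 without D9, and 0.18 (SE 0.16, FDR 0.75) between the control groups, 0.07 without D9. In High mice it was -0.03 (SE 0.16, FDR 0.99), with run mice on both sides of the controls, and the interaction was -0.28 (SE 0.22, FDR 0.65).

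Uba2, the subunit that takes over the activated SUMO by its catalytic cysteine, had 60.0, 67.9, 65.1 and 66.4 CPM in Low Control and 80.0, 59.1, 55.9 and 60.4 in Low Run. It had 69.4, 61.2 and 62.9 CPM in High Control and 64.6, 61.6, 56.4 and 77.6 in High Run. The 4 group means lay between 63.8 and 65.1 CPM, and 1 mouse of each run group, D57 and D62, was above all control mice. The log2 fold change of Uba2 was -0.02 (SE 0.13, 95% interval -0.31 to 0.26, FDR 0.95) in Low mice and 0.03 (SE 0.15, 95% interval -0.28 to 0.34, FDR 0.99) in High mice. Its coefficient of variation over the 15 mice, 10.8%, was the smallest of the members, beside 38.5% for Sumo3.

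**Figure D3:**
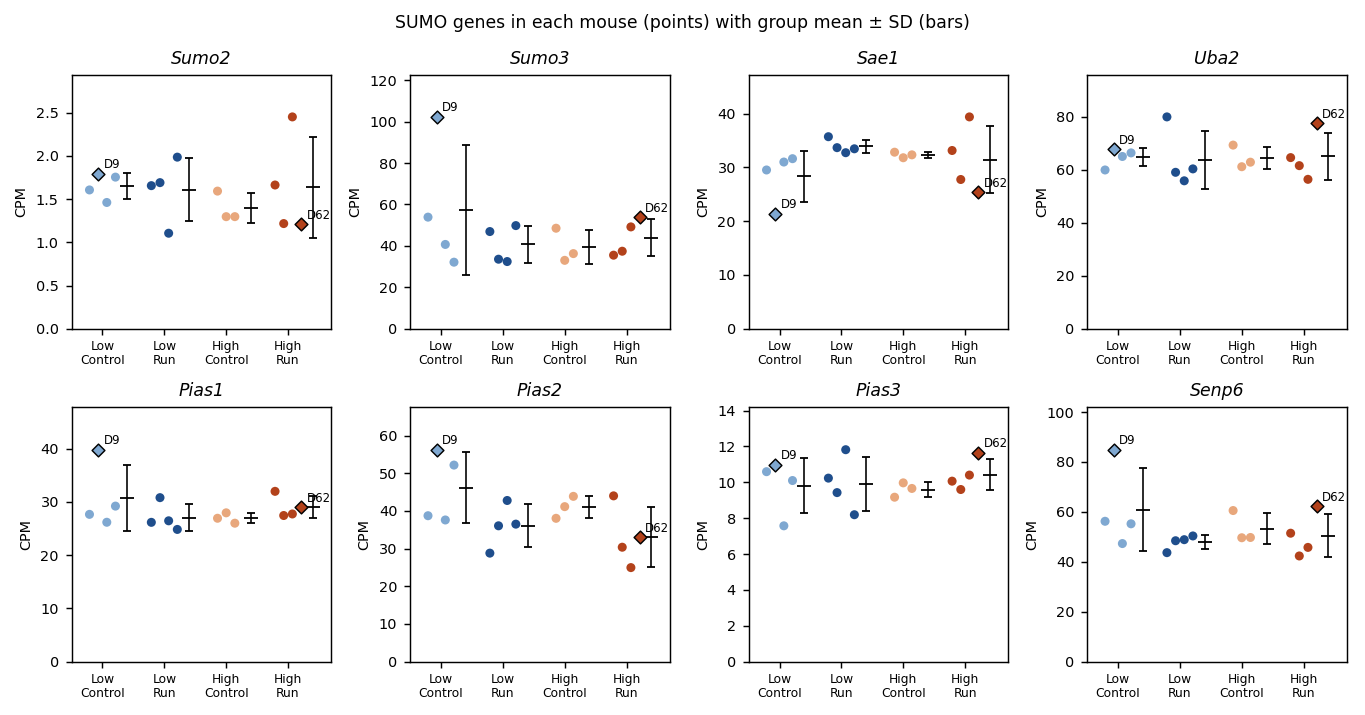
CPM (y axis, from 0) of the 8 SUMO genes in each mouse (points) by group (x axis), with the mean ± SD of each group beside its points; diamonds mark mice D9 and D62. D9 is the highest point for Sumo3, Pias1, Pias2 and Senp6 and the lowest for Sae1.

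The PIAS ligases were described first as inhibitors of activated STAT factors and guide SUMO to transcription factors and other nuclear proteins. Pias1 had 27.7, 39.8, 26.2 and 29.2 CPM in Low Control and 26.2, 30.8, 26.4 and 24.8 in Low Run. It had 26.9, 27.9 and 26.0 CPM in High Control and 32.0, 27.4, 27.7 and 29.0 in High Run. Apart from D9, no mouse was above 32.0 CPM. The log2 fold change of Pias1 was -0.18 (SE 0.14, FDR 0.52) in Low mice, -0.03 without D9, and 0.12 (SE 0.15, FDR 0.96) in High mice, and the interaction was 0.30 (SE 0.20, 95% interval -0.13 to 0.73, FDR 0.63), 0.15 without D9.

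Pias2 had 38.7, 56.3, 37.6 and 52.2 CPM in Low Control and 28.8, 36.0, 42.8 and 36.5 in Low Run. It had 38.0, 41.1 and 43.9 CPM in High Control and 44.0, 30.4, 24.9 and 33.0 in High Run. In both frailty groups 3 of 4 run mice were below all of their controls, and 1 run mouse in each, D66 and D49, was not. The log2 fold change of Pias2 was -0.36 (SE 0.18, 95% interval -0.75 to 0.03, FDR 0.39) in Low mice and -0.30 (SE 0.20, 95% interval -0.72 to 0.12, FDR 0.96) in High mice. That of Senp6, given below, was also under 0 in both. The interaction was 0.06 (SE 0.27, 95% interval -0.51 to 0.63, FDR 0.95). Without D9 and D62 the log2 fold changes of Pias2 were -0.25 and -0.31, and neither passed the threshold. Pias3, the least abundant of the 3, had 10.6, 11.0, 7.57 and 10.1 CPM in Low Control, 10.2, 9.43, 11.8 and 8.19 in Low Run, 9.17, 9.97 and 9.66 in High Control and 10.1, 9.60, 10.4 and 11.7 in High Run. Its log2 fold change was 0.02 (SE 0.15, 95% interval -0.30 to 0.33, FDR 0.97) in Low mice and 0.13 (SE 0.16, FDR 0.96) in High mice.

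Senp6, which shortens chains of Sumo2 and Sumo3 on their targets, had 56.2, 84.9, 47.3 and 55.2 CPM in Low Control and 43.7, 48.4, 48.9 and 50.3 in Low Run. It had 60.5, 49.6 and 49.7 CPM in High Control and 51.4, 42.3, 45.8 and 62.2 in High Run. In Low mice 3 of 4 controls were above every run mouse and D11 was not, whereas the High groups were interleaved. The log2 fold change of Senp6 was -0.35 (SE 0.18, 95% interval -0.72 to 0.02, FDR 0.38) in Low mice, the smallest p of any member in any comparison (unadjusted p = 0.0637), and -0.07 (SE 0.19, FDR 0.98) in High mice. Without D9 the Low value was -0.15 and without D11 it was -0.46 (FDR 0.26). The interaction of Senp6 was 0.29 (SE 0.26, FDR 0.70), and -0.05 without D9 and D62.

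Between the sedentary groups, the largest difference was that of Sumo3, -0.56 in High Control against Low Control (SE 0.32, 95% interval -1.24 to 0.13, FDR 0.70), and without D9 it was -0.11. The other members gave -0.25 (Sumo2), -0.20 (Pias1), -0.18 (Pias2), -0.20 (Senp6), -0.04 (Pias3) and -0.02 (Uba2), besides the value of Sae1 above. Between the run groups the log2 fold changes lay between -0.12 (Pias2) and 0.12 (Sumo3), each with an FDR of 0.999.

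D9 was the highest or the lowest of the 15 mice for 5 of 8 members, highest for Sumo3, Pias1, Pias2 and Senp6 and lowest for Sae1. Over all tested genes D9 held such an end for 43.4%. D62 was at neither end for any member (22.4% of all genes), and D53 was at an end for 3 members, highest for Sumo2 and Sae1 and lowest for Pias2 (20.9% of all genes). In D9 the summed erythroid markers, 527 CPM, the leukocyte markers, 3.27 CPM, and the muscle markers, 98290 CPM, lay within the range of the other libraries. Within Low Control, D9 had the lowest muscle, macrophage, leukocyte, adipocyte and satellite cell sums. Among single markers D9 was the lowest of the 15 mice for Ckm (18506 CPM), Col1a1 (13.1) and Col3a1 (12.3). It was the highest for Lep (16.7) and Myf5 (2.12). Whether cell types bear on the values of D9 was not tested.

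**Figure D4:**
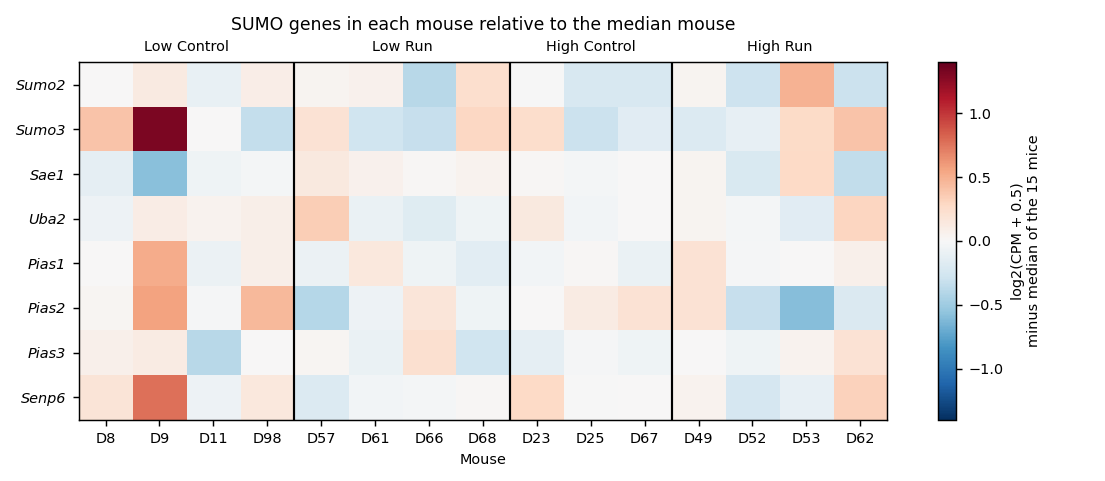
Difference of log2(CPM + 0.5) from the median of the 15 mice (colour, red above and blue below) for the 8 SUMO genes (rows) in each mouse (columns, by group). The column of D9 is the most strongly coloured, with Sumo3 and Senp6 high and Sae1 low, and D53 is blue for Pias2 and red for Sumo2 and Sae1.

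How the members varied together was described across the 15 mice, which include all groups, so these correlations carry no test. Pearson's r of log2(CPM + 0.5) between the 28 pairs of members ran from -0.74 (Sae1 and Senp6) to 0.73 (Sumo3 and Senp6), with a median of 0.11 and 18 pairs above 0. Both ends depended on D9 and D62, without which they were -0.13 and 0.14. The pair Pias2 and Senp6 kept its value, 0.62 with all mice and 0.62 without them. Among 10173 genes with a mean of at least 5 CPM, the pattern most like Sumo3 was that of Ppm1g (r = 0.97, 0.92 without D9 and D62), most like Sae1 that of Hspb2 (0.98 and 0.92), most like Pias2 that of Yme1l1 (0.96 and 0.96), and most like Senp6 that of Jmy (0.96 and 0.86). For Pias1 the closest genes were Adss (0.92 and 0.79) and Zfp451 (0.92 and 0.77), the latter itself a SUMO ligase. The closest patterns to Uba2 (Arglu1, 0.80 and 0.71), Pias3 (Letm2, 0.77 and 0.73) and Sumo2 (Sec11c, 0.82 and 0.79) were less alike. Each of these genes was picked as highest among 10173 over 15 mice, which by itself gives a high r. How high an r such a choice gives among unrelated genes was not tested.

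Of the rest of the pathway, 23 further genes are described, all of which were tested: 10 other ligases and regulators, 8 other proteases and 5 SUMO-bound proteins or SUMO-targeted ubiquitin ligases. None passed an FDR of 0.1. At an unadjusted p under 0.05, Low Run against Low Control gave 0 higher and 3 lower (7.52% of all genes were lower by that rule), with a median log2 fold change of -0.20 over the 23. The 3 were the nuclear pore ligase Ranbp2 (-0.65, SE 0.25, FDR 0.36), the ligase Zfp451 (-0.44, SE 0.19, FDR 0.36) and the protease Senp1 (-0.47, SE 0.20, FDR 0.36). Ranbp2 had 76.0, 174, 69.9 and 77.8 CPM in Low Control and 55.8, 71.6, 66.8 and 60.1 in Low Run. D9 was the highest of the 15 mice for all 3 of these genes and for 13 of the 23, beside 22.1% of all tested genes. Without D9 and D62 none of the 23 had an unadjusted p under 0.05 in this comparison, their median was -0.09, and the log2 fold changes were -0.23 for Ranbp2, -0.20 for Zfp451 and -0.21 for Senp1. The count of 3 was 0 without D9 or without D57, 1 without D68, 4 without D8 or without D11, and 8, all lower, without D98. Without D66 it was 4 (Ranbp2, Senp2, Senp5 and Rnf111, all lower), and Zfp451 and Senp1 were not among them.

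Zmiz2, a PIAS-like protein with a SUMO ligase type of RING domain, was the pathway gene with the smallest p after running in High mice. High Control mice had 88.3, 92.4 and 114 CPM and High Run mice 80.7, 73.3, 62.1 and 51.7 CPM, so the groups did not overlap, as was the case in this direction for 3.91% of all genes. Its log2 fold change was -0.54 (SE 0.16, FDR 0.96) in High mice and 0.05 in Low mice, where controls had 76.2, 60.8, 80.8 and 85.0 CPM and run mice 77.4, 78.8, 89.2 and 68.5. The interaction of Zmiz2 was -0.60 (SE 0.22, FDR 0.60), and -0.41 (FDR 0.98) without D9 and D62, when the High value was -0.45 (FDR 0.55). It was the sole pathway gene at an unadjusted p under 0.05 in High mice, 1 of 23 (5.18% of all genes in either direction). Senp2, a protease, was a second one, also lower, without D23 or without D49. In the interaction 2 pathway genes were higher (Ranbp2 0.83 and Zfp451 0.61, each FDR 0.60) and Zmiz2 lower at that level with all mice. Of all genes, 5.24% were higher and 2.69% lower by that rule. Without D9 and D62 Zmiz2 alone was left. Zmiz2 was also the sole gene without any 1 of D9, D57, D68, D23, D25, D49 or D62, none was left without D67, and Senp1 and Rnf111 joined, both higher, without D53. Senp1 alone joined, higher, without D8, D11 or D61, and Rnf111 alone, higher, without D98. Without D66 the higher gene was Rnf111 in place of Ranbp2 and Zfp451. Between the control groups Zmiz2 was higher in High Control and Ranbp2, Zfp451, Senp1 and Rnf111 lower by the same rule. Of all genes, 1.8% were higher and 4.06% lower there. Without D9 and D62 none of these 5 met that rule. Those 5 were 0 without D9 or without D67, 1 without D23 (Zmiz2) and 2 without D25 (Zmiz2 and Rnf111), without D8 Zmiz2 alone was lost, and without D98 there were 7. Between the run groups none of the 23 met it, with or without those mice.

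As a comparison outside the SUMO system, 11 genes of the sister modifiers were tested, and Nedd8, a ubiquitin-like protein that activates cullin ligases, alone had an unadjusted p under 0.05 in Low mice (0.41, SE 0.13, FDR 0.36, groups without overlap) and in the interaction (-0.45, SE 0.19, FDR 0.60). Of all genes, 5.92% were higher by that p in Low mice, 3.08% were higher without overlap, and 2.69% were lower in the interaction. D9 was the lowest of the 15 mice for Nedd8, with 46.9 CPM, and how far it bears on these values was not tested.

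**Figure D5:**
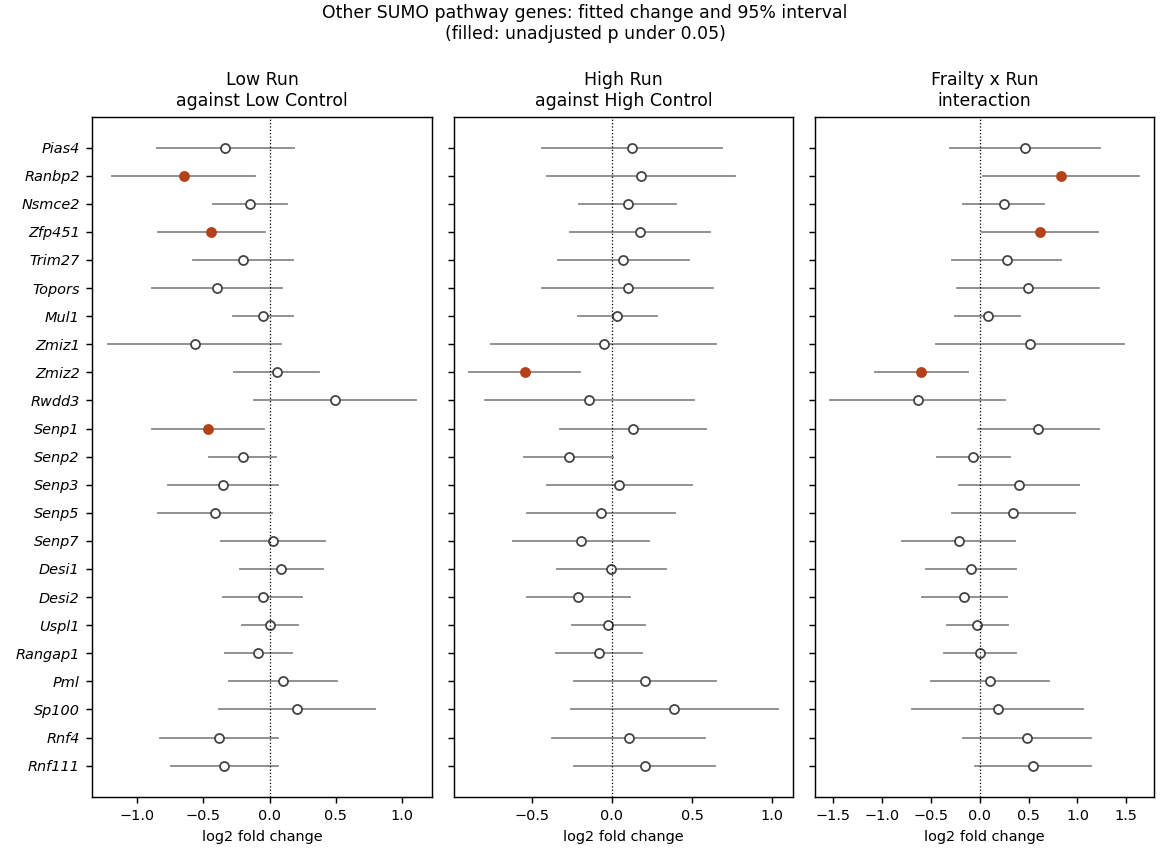
Fitted log2 fold change (x axis, point) with its 95% interval (line) for 23 other SUMO pathway genes after running in Low mice, in High mice and in the interaction; filled points have an unadjusted p under 0.05. Ranbp2, Zfp451 and Senp1 are filled in Low mice and Zmiz2 in High mice, and all intervals are from fits with all 15 mice.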

How the data were processed

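RNA was measured by bulk RNA sequencing in 15 mice, 1 library each. The authors used STAR 2.7.9a for alignment to mm10, and counted uniquely aligned, same-strand proper pairs per non-mitochondrial gene with featureCounts (Subread 2.0.3 per the submitters' processing notes) against Ensembl build 100. The deposited counts are not normalized. The deposited VST table, made by the authors with DESeq2 on a log2-like scale, was recomputed from the counts with a difference of 0 and served as an alternative. Groups came from the labels.

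The tests used edgeR 4.0.16 (R 4.3.3): filterByExpr, TMM, and the quasi-likelihood F-test with 1 mean per group, Benjamini-Hochberg FDR over 16920 genes and a threshold of 0.1. CPM use TMM library sizes, and log2 levels a pseudocount of 0.5. Spread between mice set the errors (biological coefficient of variation 0.266). Gene models, sequences and lengths came from GENCODE M21 on GRCm38, and 75-base windows were compared between transcripts, since the read length is not given in the sources used here. Of the 55450 genes counted with Ensembl build 100, 55190 had a symbol in GENCODE M21. Levels per kilobase therefore rest on exon lengths from another annotation than that of the counts. All 8 members were named, other pathway genes by an unadjusted p under 0.05, and the 2 most similar patterns per member by Pearson's r. Some genes of the pathway and marker lists are not reported here and were left out of the list counts and sums. Scripts were tested on simulated data. The members and lists were chosen with earlier results of these data known.

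Alternatives were DESeq2 1.42.0, RLE and upper-quartile normalization, no filter or at least 10 counts in every mouse, only the groups compared, voom quality weights (limma 3.58.1), length and GC offsets, and each mouse left out. Leaving out D9 and D62 together, summing Sumo2 with Gm10241, and all alternatives for the other pathway genes were added after seeing the data.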

Additional observations from a re-analysis of the deposited data

How the results depend on the processing

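No member passed an FDR of 0.1 under any alternative: none of 717 alternative values of the 40 log2 fold changes did, and the lowest FDR among them was 0.25. The sign changed in 61 of the 717, in 18 of them by a planned setting other than leaving out a mouse, mostly for values near 0, and the cause was not tested. Only Sumo3 in Low Run against Low Control and in High Control against Low Control (no count filter, 1 member each) and Pias2 in Low Run against Low Control (length and GC offsets, 1 member) reached an unadjusted p under 0.05 by a setting other than leaving out mice. Counts of 26 to 74 per mouse limit Sumo2, and groups of 3 or 4 mice limit all members. No paired analysis was possible because the groups share no replicate numbers.

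The number of genes at an FDR of 0.1, 0 by edgeR in each comparison, was 10 (Low) and 15 (High) with DESeq2, 45 (High) with voom quality weights, and without a count filter 86 (Low), 19 (High), 4 (interaction) and 6 (High Run against Low Run). Genes at an unadjusted p under 0.05 numbered 1385 (Low), 2300 (High), 1578 (between controls) and 860 (between run groups) with voom, 1715 (High), 2588 (interaction), 1925 (between controls) and 1384 (between run groups) without a filter, and 1226 (Low), 740 (interaction) and 636 (between controls) without D9 and D62. With each mouse left out in turn they ranged from 846 (without D9) to 2898 (without D98) in Low mice, 586 (without D67) to 1124 (without D49) in High mice, 785 (without D9) to 2357 (without D53) for the interaction, 443 (without D9) to 1805 (without D98) between controls and 305 (without D62) to 979 (without D53) between run groups. Members at that level ranged from 0 to 2 in Low mice and from 0 to 1 in High mice, in the interaction and between controls: Sumo3 without D98, Pias2 without D8, D11 or D66, and Senp6 without D11 in Low mice, Pias2 without D49 in High mice, Sumo3 without D98 and Sae1 without D53 in the interaction, and Sumo3 without D98 between controls. The 3 other pathway genes at that level in Low mice were 5 without a count filter, 1 with only the compared groups or with length and GC offsets, and 0 with voom. In High mice the 1 was 2 with DESeq2, RLE or length and GC offsets (Senp2 added) and with voom (Sp100 added, higher). The 3 of the interaction were 1 with voom or length and GC offsets, and the 5 between controls were 3 with voom and 2 with only the compared groups or with those offsets.

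The log2 fold changes that changed sign were the following. In Low mice Sumo2 was 0.034 with upper-quartile normalization and 0.19 when summed with Gm10241, and Uba2 0.052 with upper-quartile normalization and 0.070 with length and GC offsets. In High mice Sae1 was 0.050 without D9 and D62, and Uba2 -0.026 with voom and -0.083 without those mice. In the interaction Sumo2 was -0.13 when summed, Uba2 -0.020 (upper quartile), -0.047 (length and GC) and -0.078 (without D9 and D62), Pias2 -0.016 (upper quartile), -0.12 (voom) and -0.061 (without both mice), Pias3 -0.12 (voom) and -0.0082 (without both), and Senp6 -0.046 (voom) and -0.049 (without both). Between controls Uba2 was 0.040 (upper quartile), 0.034 (length and GC) and 0.0080 (without both), Pias3 0.020 (upper quartile), 0.059 (voom) and 0.019 (without both), and Senp6 0.0032 (without both). Between run groups Sumo2 was -0.028 (voom) and -0.15 (summed), Uba2 -0.012 (length and GC) and -0.070 (without both), Pias3 -0.060 (voom), and Senp6 -0.065 (voom) and -0.045 (without both).

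With each mouse left out, those that changed sign ranged, in Low mice, from -0.17 (without D68) to 0.089 (without D66) for Sumo2, -0.14 (without D57) to 0.022 (without D66) for Uba2 and -0.099 (without D11) to 0.083 (without D68) for Pias3. In High mice the ranges were -0.031 (without D53) to 0.35 (without D52) for Sumo2, -0.16 (without D53) to 0.050 (without D62) for Sae1, -0.083 (without D62) to 0.087 (without D53) for Uba2 and -0.20 (without D62) to 0.034 (without D23) for Senp6. In the interaction they were -0.050 (without D62) to 0.17 (without D57) for Uba2 and -0.098 (without D49) to 0.17 (without D53) for Pias2, and between controls -0.069 (without D23) to 0.021 (without D25) for Uba2, -0.15 (without D11) to 0.019 (without D9) for Pias3 and -0.31 (without D11) to 0.0030 (without D9) for Senp6. Between run groups they were -0.24 (without D53) to 0.15 (without D52) for Sumo2, -0.00056 (without D62) to 0.24 (without D68) for Sumo3, -0.071 (without D62) to 0.16 (without D57) for Uba2, -0.0010 (without D68) to 0.18 (without D66) for Pias3 and -0.046 (without D62) to 0.16 (without D52) for Senp6.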
